A study of Mus musculus with 16 samples.

Results

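The genes described here are the core machinery of autophagy and its cargo receptors, 41 genes chosen by name for what their proteins do, a rule that uses no measured value. They are 41 of the 35968 genes in the tables, and all 41 passed the filter on low counts, which 18944 genes passed. They were measured by poly(A)-selected RNA sequencing in mouse embryonic stem cells (ESCs), the pluripotent cells grown from the blastocyst. There were 4 groups of 4 libraries: paused Dgcr8 knockout (KO) cells, KO cells in normal culture, paused wild-type (WT) cells and WT cells in normal culture. Paused cells were held for 2 days in mTORi culture, that is with an inhibitor of the growth kinase mTOR, a treatment that puts ESCs into a dormancy-like state. The labels name neither the inhibitor nor its dose, and they do not say which part of Dgcr8 was removed, in how many clones, or from which strain the cells came. Dgcr8 is the RNA-binding partner of Drosha, and cells without it make almost no canonical microRNAs. The study asks what microRNAs contribute to the passage of pluripotent cells into dormancy.

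Macroautophagy encloses cytoplasm in a double membrane, the autophagosome, and delivers it to lysosomes. The ULK kinase complex starts the process, a lipid kinase complex around Beclin 1 marks the site with phosphatidylinositol 3-phosphate (PI3P), and ATG9 vesicles, ATG2 lipid transfer proteins and PI3P-binding WIPI proteins build the membrane. Ubiquitin-like conjugation then couples proteins of the ATG8 family to that membrane, where cargo receptors bind them. Active mTOR complex phosphorylates ULK and ATG13 and holds the process back, and it also keeps the transcription factors TFEB and TFE3, which act on autophagy and lysosome genes, out of the nucleus. The data are mRNA levels and contain no measure of protein, lipidation or autophagic flux.

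The libraries held 88377380 to 116646028 estimated counts. The KO libraries had more Dgcr8 mRNA than the WT libraries, with 181 ± 7.33 and 250 ± 4.13 CPM (counts relative to the TMM-scaled library total; SD over 4 libraries) in paused and normal KO cells and 53.9 ± 2.43 and 47.3 ± 1.81 CPM in paused and normal WT cells. Because the deleted part is not stated, this level checks nothing about the genotype. The Y-linked gene Ddx3y had 13 to 44 counts in the 8 KO libraries and 8326 to 10946 in the 8 WT libraries, so the lines also differ in Y-linked expression. All 10 ESC markers examined had at least 1 CPM in each group, with a summed level of 5633 to 7453 CPM in the libraries, against at most 44.1 CPM for lists of fibroblast, endoderm, trophoblast or neuroectoderm markers. Col3a1, Dcn, Lum, Postn and Afp of those lists averaged at most 0.0886 CPM in each group. The lists still differed between the genotypes. The 8 fibroblast markers summed to 27.3 to 29.4 CPM in paused and 38.7 to 44.1 CPM in normal KO libraries, against 13.7 to 14.2 and 14.3 to 19 CPM in paused and normal WT libraries, with Thy1 at 30.8 and 11.8 CPM in normal KO and WT cells. Pdgfrb was also higher in normal KO than WT cells (8.28 against 2.32 CPM). The collagen genes of this list went the other way, with Col1a1 (1.48 against 1.88 CPM) and Col1a2 (0.152 against 0.410 CPM) lower in normal KO cells. The 6 endoderm markers summed to 5.02 to 6.12 and 8.61 to 9.76 CPM in paused and normal KO libraries, against 10.4 to 17.1 and 13.6 to 20.1 CPM in paused and normal WT libraries. Gata6 was lower in normal KO than WT cells (1.20 against 5.03 CPM), while Sox7 was higher (4.96 against 3.61 CPM). The 4 trophoblast markers summed to 5.09 to 8.06 CPM in KO and 9.18 to 12.6 CPM in WT libraries. Gata3 was lower in normal KO than WT cells (0.493 against 5.34 CPM), while Eomes was higher (5.71 against 3.81 CPM). The 4 neuroectoderm markers summed to 15.7 to 17.7 and 26.5 to 29.5 CPM in paused and normal KO libraries, against 27.7 to 30.1 and 30.7 to 36.3 CPM in paused and normal WT libraries. In normal culture Pax6 was lower in KO than WT cells (1.19 against 10.3 CPM), while Sox1, Nes and Zic1 were not called. The part of these marker lists in the genotype differences below was not tested. In bulk RNA, fewer cells of a type and less RNA per cell cannot be told apart. In WT normal culture replicates 1 and 2 lay apart from replicates 3 and 4 for several of the genes. For some of the results that differ between these pairs, both values are given. Nothing in the labels tells whether replicates of a group came from separate cultures. The p-values therefore rest on library-to-library spread that could be technical only.

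All adjusted p-values are from edgeR's quasi-likelihood test with Benjamini-Hochberg adjustment over 18944 genes, and "rose", "fell", "higher" and "lower" are used of adjusted p under 0.05. In paused against normal KO cells, 18 of the 41 genes were called higher and 14 lower, where 67.2% of all genes tested were called, 34.4% higher and 32.8% lower. The median log2 fold change was 0.04 for the 41 genes and 0.02 for all genes. In paused against normal WT cells 18 were higher and 9 lower, where 60.7% of all genes were called, 33.3% higher and 27.5% lower, and the medians were 0.07 and 0.04. The called shares of the list were 78% in KO and 65.9% in WT cells. Paused and normal libraries did not overlap for 33 of the 41 genes in KO cells, against 64% of all genes, and for 27 in WT cells, against 54%. The 41 mRNAs had no common direction, and in KO cells each of the 6 steps held both higher and lower genes. The initiation genes had the highest medians of the 6 steps, 0.80 in KO and 0.65 in WT cells, and the receptor genes ran from −1.35 to 1.00 in KO and from −0.42 to 1.43 in WT cells.

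Both genotypes raised 12 of the genes in paused culture, namely Ulk1, Ulk2, Rb1cc1, Atg13, Pik3c3, Wipi1, Wdr45, Atg4b, Map1lc3b, Gabarap, Nbr1 and Calcoco1. Both lowered 7, namely Atg101, Ambra1, Wdr45b, Atg5, Atg16l1, Atg4a and Map1lc3a. Calls of opposite direction were made for 3 genes. Wipi2 and Tax1bp1 were lower in paused KO and higher in paused WT cells, and Atg12 was higher in paused KO and lower in paused WT cells. Neither genotype gave a call for Becn1, Atg14, Atg4c and Gabarapl2.

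Comparing genotypes within paused culture, 22 genes were higher and 10 lower in KO than in WT cells, where 65.4% of all genes were called, 30.8% higher and 34.5% lower. Within normal culture 22 were higher and 11 lower, where 68.2% of all genes were called, 34.1% higher and 34.1% lower. The medians of the 41 genes were 0.16 in paused and 0.12 in normal culture, against −0.03 over all genes in each. KO cells had more mRNA in both cultures for 18 genes and less for 4, Atg13, Wdr45b, Gabarapl2 and Bnip3. Ambra1 and Nbr1 were called in neither culture. KO and WT libraries did not overlap for 31 of the genes in paused culture, against 63.4% of all genes, and for 30 in normal culture, against 60.5%.

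**Figure D1:**
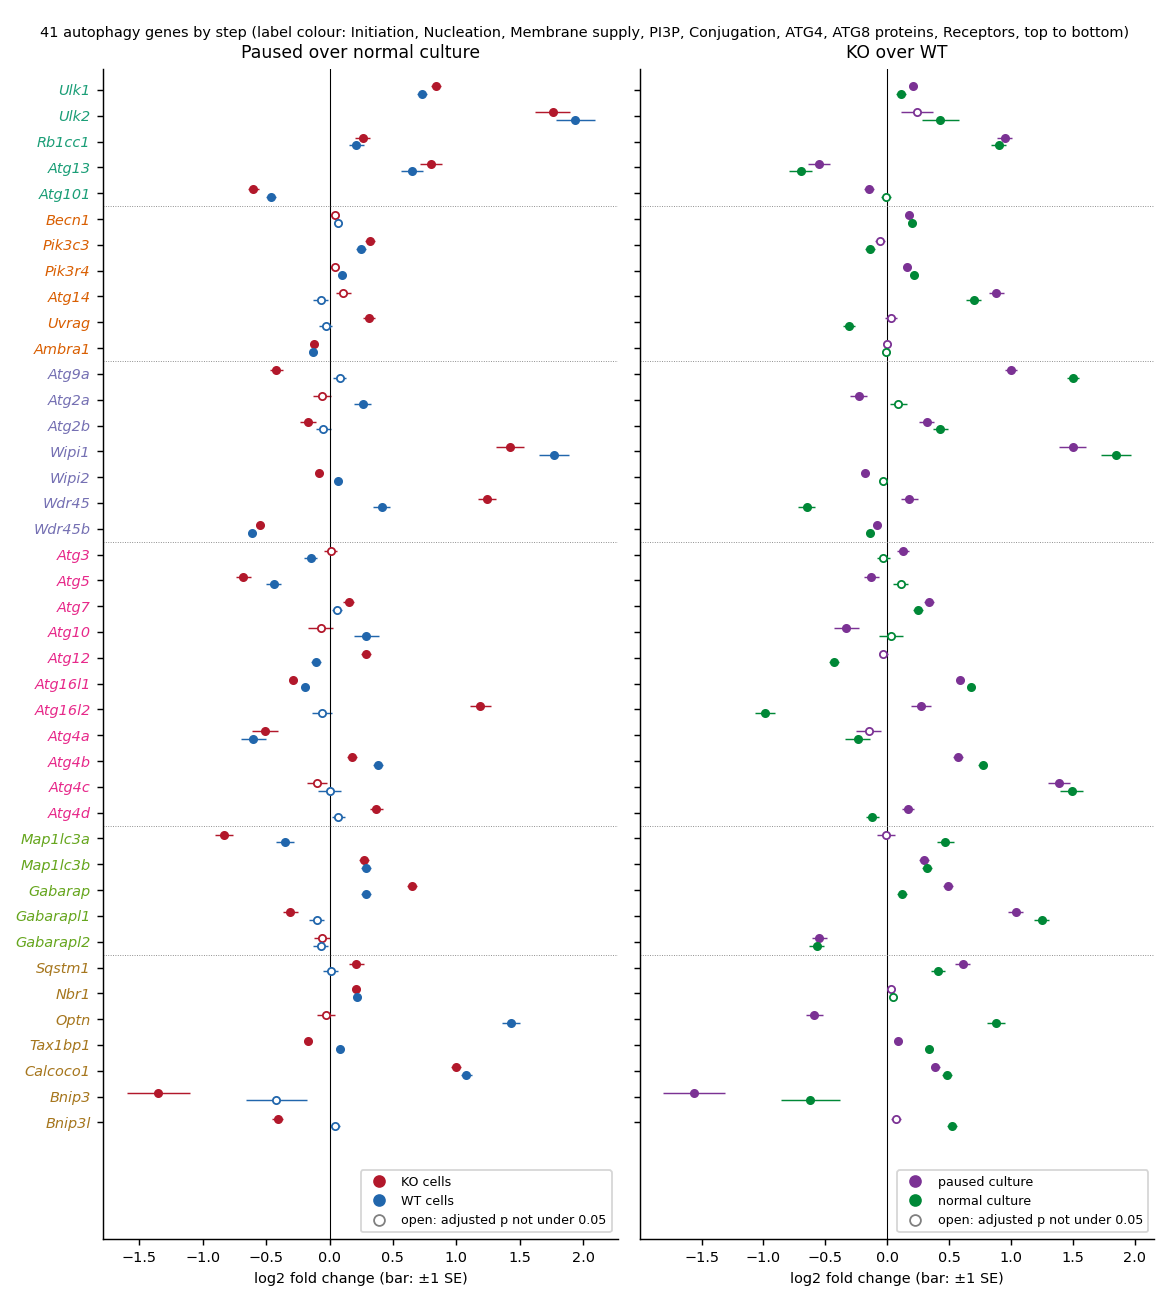
Log2 fold changes (x axis) of the 41 genes (rows, by step) for paused over normal culture in KO and WT cells (left) and for KO over WT in paused and normal culture (right), with bars of 1 SE from 4 libraries per group. Filled points have an adjusted p under 0.05, and Ulk2, Wipi1 and Calcoco1 lie at 1.00 or higher in both genotypes on the left while Wipi1, Atg4c and Gabarapl1 lie above 1 in both cultures on the right.

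In the ULK complex, which starts autophagosome formation, all 5 genes were called in both genotypes, 4 higher and 1 lower, and for none of the 5 did the pausing response in KO minus that in WT cells (the interaction) pass the threshold. Ulk1 encodes the kinase at the head of the complex (ENSMUSG00000029512.11, chromosome 5, 110784488 to 110810097, GRCm38). It had 433, 440, 475 and 471 CPM in paused KO libraries and 246, 249, 259 and 260 CPM in normal KO libraries. Paused WT libraries had 394, 387, 398 and 390 CPM and normal WT libraries 242, 227, 235 and 239 CPM. Paused and normal libraries did not overlap in either genotype. Ulk1 rose by 0.84 ± 0.04 (log2, SE) in KO and by 0.73 ± 0.04 in WT cells, with adjusted p = 5.5e-13 and 4.5e-12. Its interaction of 0.11 (adjusted p = 0.087) passed the threshold when KO paused replicate 1 (0.14) or 2 (0.13), or WT normal replicate 2 (0.17) or 3 (0.15), was left out. It also passed with RLE scaling (0.13, adjusted p = 0.042), with DESeq2 (0.13, adjusted p = 0.028) and with protein-coding genes alone (0.17, adjusted p = 0.0069). It was 0.21 higher in KO than in WT cells when paused and 0.11 higher in normal culture, the second being lost without WT normal replicate 2 (0.08).

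Ulk2 encodes the second kinase of the complex (ENSMUSG00000004798.14, chromosome 11, 61775649 to 61855073) and had the largest log2 fold change on pausing of the 41 genes in each genotype, at a low level. It had 6.23, 6.14, 5.23 and 6.495 CPM in paused KO libraries and 1.96, 1.80, 1.84 and 1.502 CPM in normal KO libraries. In WT cells it had 5.72, 5.92, 3.95 and 4.76 CPM when paused and 1.57, 1.07, 1.48 and 1.17 CPM in normal culture. Every paused library lay above every normal one. The log2 fold changes were 1.76 ± 0.14 in KO cells (adjusted p = 2.8e-09) and 1.94 ± 0.15 in WT cells (adjusted p = 1.4e-09). Measured per transcript length, Ulk2 stayed far below Ulk1, with 2.03 against 186 TPM, a length-corrected abundance, in paused KO cells. Ulk2 was 0.43 higher in KO cells in normal culture, a call lost without KO normal replicate 1 (0.38) or WT normal replicate 2 (0.32).

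Rb1cc1 encodes the scaffold of the complex (ENSMUSG00000025907.14, chromosome 1, 6206197 to 6276648). It had 76.7, 83.6, 75.2 and 78.7 CPM in paused and 65.9, 67.4, 64.2 and 64.9 CPM in normal KO libraries, against 39.8, 44.3, 38.2 and 40.1 CPM in paused and 39.1, 38.1, 32.1 and 31.5 CPM in normal WT libraries. The genotypes were far apart and the cultures close together, overlapping in WT cells. KO cells exceeded WT cells by 0.95 ± 0.06 when paused and by 0.90 ± 0.06 in normal culture (adjusted p = 2.8e-10 and 5.0e-10). Rb1cc1 rose on pausing by 0.26 in KO and 0.21 in WT cells, and the WT call was lost without WT normal replicate 3 (0.14). With length-scaled TPM counts the KO response took the other sign (−0.15), so its direction depends on how transcript lengths enter.

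Atg13, whose protein is a target of mTOR along with ULK, averaged 113, 64.8, 165 and 105 CPM in paused KO, normal KO, paused WT and normal WT cells. It rose on pausing by 0.80 ± 0.09 in KO and 0.65 ± 0.09 in WT cells, and it was lower in KO than in WT cells by a log2 fold change of −0.55 when paused and −0.70 in normal culture. WT normal replicates 1 and 2 had 86.5 and 93.0 CPM and replicates 3 and 4 had 116 and 125 CPM. The rise in WT cells was 0.82 from replicates 1 and 2 alone and 0.50 from replicates 3 and 4 alone. Atg101, which stabilises Atg13, was the only gene of the complex with lower levels in paused cells, at −0.60 ± 0.04 in KO and −0.46 ± 0.04 in WT cells.

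Genes of the Beclin 1 lipid kinase complex moved little on pausing, with 2 of 6 higher and 1 lower in each genotype. Becn1 encodes Beclin 1 itself (ENSMUSG00000035086.13, chromosome 11, 101285952 to 101302286). It had 62.3, 62.5, 63.0 and 67.0 CPM in paused and 62.7, 62.8, 61.2 and 60.5 CPM in normal KO libraries. WT libraries had 58.3, 56.0, 55.1 and 56.2 CPM when paused and 52.7, 54.1, 54.2 and 54.3 CPM in normal culture. Neither pausing response passed the test (0.04, adjusted p = 0.25 in KO and 0.07, adjusted p = 0.086 in WT cells). With length-scaled TPM counts both passed, at 0.17 in KO (adjusted p = 0.0050) and 0.15 in WT cells (adjusted p = 0.011). KO cells were higher by 0.18 when paused and 0.20 in normal culture. Becn1 overlaps Cntd1 (0.805 to 2.53 CPM) over 1299 bases of identical sequence, so its counts carry that uncertainty.

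Pik3c3, the lipid kinase VPS34, rose by 0.32 ± 0.04 in KO and 0.25 ± 0.04 in WT cells. Its regulatory partner Pik3r4 rose in WT cells by 0.10, a call lost without WT normal replicate 2 or 3 (0.07 each), and had 0.04 in KO cells. Ambra1, which links Beclin 1 to its regulators, fell by 0.12 in KO and 0.13 in WT cells. Uvrag, which directs the complex to endosomes, rose by 0.31 ± 0.05 in KO cells and had −0.03 in WT cells, with an interaction of 0.34 (adjusted p = 0.0016). With length-scaled TPM counts the KO response of Uvrag was 0.00, and stretches of its transcripts are at least 95% identical to parts of Gga3, Klhl20, Mettl6 and Txndc16.

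Atg14 encodes the subunit that makes the complex specific for autophagy (ENSMUSG00000037526.7, chromosome 14, 47540893 to 47570649). Paused KO libraries had 75.8, 79.4, 74.4 and 78.1 CPM and normal KO libraries 65.7, 71.7, 75.7 and 71.4 CPM. Paused WT libraries had 44.7, 43.9, 38.4 and 39.9 CPM and normal WT libraries 42.1, 39.6, 45.1 and 48.2 CPM. No KO library overlapped a WT library, and the cultures overlapped within each genotype. The genotype difference was 0.88 ± 0.06 when paused and 0.70 ± 0.06 in normal culture (adjusted p = 3.8e-10 and 6.9e-09). The pausing responses were 0.11 in KO cells (adjusted p = 0.10) and −0.07 in WT cells (adjusted p = 0.35). In WT cells replicates 1 and 2 alone gave 0.12, and replicates 3 and 4 alone gave −0.26 (adjusted p = 1.7e-04). The KO response passed without WT normal replicate 2 (0.13). The interaction of 0.18 (adjusted p = 0.096) passed without WT paused replicate 1 (0.23) or WT normal replicate 2 (0.27). It was 0.06 from replicates 1 and 2 alone and 0.31 from replicates 3 and 4 alone (adjusted p = 0.0012).

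Among the membrane supply genes and PI3P effectors, 2 of 7 were higher and 4 lower in paused KO cells, and 4 were higher and 1 lower in paused WT cells. Wipi1 encodes a PI3P-binding protein of the growing membrane (ENSMUSG00000041895.15, chromosome 11, 109573331 to 109611967) and was higher in paused than in normal cells and higher in KO than in WT cells. It had 23.1, 27.6, 22.8 and 27.4 CPM in paused KO libraries and 10.9, 10.8, 7.70 and 8.34 CPM in normal KO libraries. It had 9.48, 9.11, 8.52 and 8.57 CPM in paused WT libraries and 2.98, 2.65, 2.31 and 2.51 CPM in normal WT libraries. Normal KO cells thus held about the amount found in paused WT cells, and their libraries overlapped. Pausing raised it by 1.42 ± 0.11 in KO and 1.77 ± 0.12 in WT cells (adjusted p = 1.1e-09 and 2.5e-10), and KO cells exceeded WT cells by 1.5 ± 0.11 when paused and 1.85 ± 0.12 in normal culture. The interaction of −0.35 (adjusted p = 0.078) passed without KO normal replicate 3 (−0.43) or 4 (−0.41) or WT normal replicate 1 (−0.42).

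Wdr45 encodes WIPI4, which binds the ATG2 proteins (ENSMUSG00000039382.12, chromosome X, 7714333 to 7728206). It had 40.0, 46.6, 44.6 and 50.8 CPM in paused and 18.1, 19.3, 20.1 and 19.9 CPM in normal KO libraries. In WT cells it had 41.5, 40.7, 39.0 and 39.7 CPM when paused and 29.4, 26.6, 31.5 and 33.8 CPM in normal culture. Normal KO libraries lay below normal WT libraries, and paused libraries of the genotypes overlapped. It rose by 1.24 ± 0.07 in KO and 0.41 ± 0.07 in WT cells, and the difference of 0.83 ± 0.10 passed the test (adjusted p = 3.7e-06). KO cells were at −0.65 against WT in normal culture. The 0.18 above WT in paused culture was lost without KO paused replicate 2 (0.17) or 4 (0.13) or WT paused replicate 3 (0.16) or 4 (0.17). Wdr45 overlaps the gene model Gm45208 (0.263 to 1.34 CPM).

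Atg9a encodes the lipid scramblase of the seed vesicles (ENSMUSG00000033124.15, chromosome 1, 75180860 to 75192196). It had 35.7, 36.6, 34.7 and 37.3 CPM in paused and 47.9, 51.0, 47.1 and 47.6 CPM in normal KO libraries, against 18.7, 18.5, 17.6 and 17.4 CPM in paused and 18.07, 18.36, 15.95 and 15.86 CPM in normal WT libraries. No KO library overlapped a WT library, and paused KO libraries lay below normal KO libraries. Atg9a fell by 0.42 ± 0.05 on pausing in KO cells and had 0.08 ± 0.05 in WT cells (adjusted p = 0.18), and the difference between these responses was −0.51 ± 0.07 (adjusted p = 2.2e-05). KO cells exceeded WT cells by 1.00 when paused and by 1.5 in normal culture (adjusted p = 7.4e-12 and 3.5e-14).

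The lipid transfer gene Atg2a rose by 0.26 in WT cells and had −0.06 in KO cells (adjusted p = 0.46), with an interaction of −0.32 (adjusted p = 0.013) that was lost without WT normal replicate 2 (−0.23). Its WT response was 0.42 from replicates 1 and 2 alone and 0.12 from replicates 3 and 4 alone. Its genotype difference was −0.23 when paused and 0.09 in normal culture, where it passed without WT normal replicate 4 (0.16). The paralogue Atg2b was higher in KO cells in both cultures (0.32 paused, 0.43 normal). It fell by 0.17 in paused KO cells, a call lost without KO paused replicate 1 (−0.16) or 3 (−0.15) or KO normal replicate 2 (−0.15), and it overlaps Gskip. Its interaction of −0.11 passed without WT normal replicate 1 (−0.19) and from replicates 3 and 4 alone (−0.25, adjusted p = 0.0013). In WT cells Atg2b had −0.05 on pausing, with −0.18 from replicates 1 and 2 alone and 0.09 from replicates 3 and 4 alone.

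Wipi2, which recruits the conjugation machinery, had −0.08 in paused KO and 0.07 in paused WT cells, an interaction of −0.16 (adjusted p = 0.0025). The WT call was lost without WT paused replicate 1 (0.06) or WT normal replicate 2 (0.05) or 3 (0.04), and length-scaled TPM counts gave −0.07. Wdr45b, or WIPI3, fell by 0.55 in KO and 0.61 in WT cells. Its difference of −0.08 between paused KO and WT cells was lost when any of 9 single libraries was left out, with values of −0.06 to −0.08 (all 4 KO paused, KO normal replicates 2 and 3, WT paused replicate 1 and WT normal replicates 2 and 3).

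**Figure D2:**
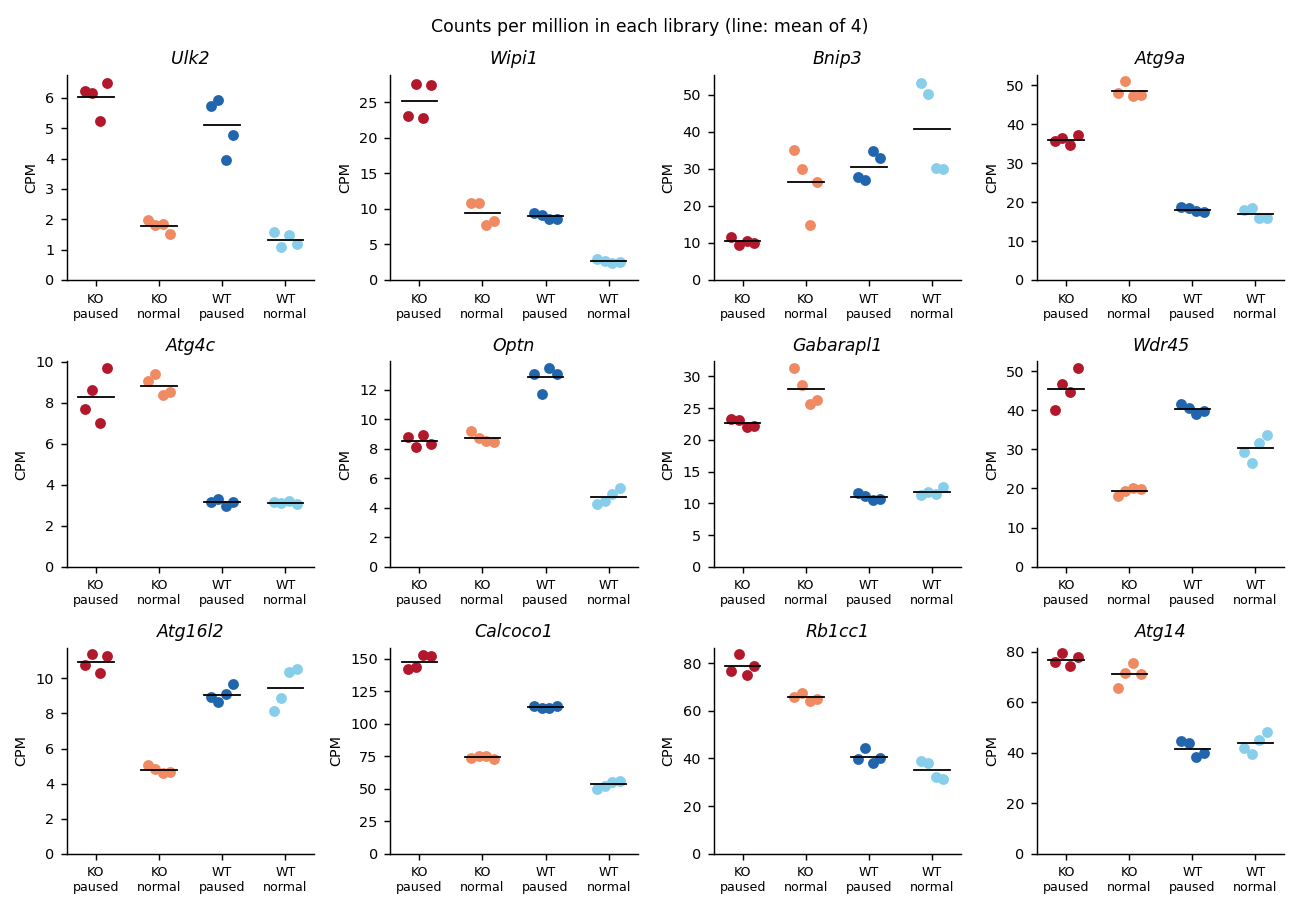
CPM in each library (points, y axis from 0) and the mean of 4 (line) for the 12 genes with the largest called log2 fold change in any comparison of groups. Paused libraries lie above normal ones in both genotypes for Ulk2, Wipi1, Wdr45 and Calcoco1, while Atg4c, Gabarapl1, Atg9a, Rb1cc1 and Atg14 separate KO from WT in both cultures.

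The conjugation genes went in both directions. In paused KO cells 5 of 11 were higher and 3 lower, and in paused WT cells 2 were higher and 5 lower. Atg5, the central protein of the ATG12 conjugate (ENSMUSG00000038160.7, chromosome 10, 44268358 to 44364291), had 24.4, 23.7, 24.0 and 22.9 CPM in paused and 38.5, 36.8, 39.0 and 38.2 CPM in normal KO libraries. WT libraries had 25.0, 25.5, 26.7 and 26.9 CPM when paused and 32.0, 32.5, 37.2 and 39.2 CPM in normal culture. Paused libraries were lower without overlap in both genotypes. Atg5 fell by 0.68 ± 0.06 in KO and 0.44 ± 0.06 in WT cells (adjusted p = 4.2e-09 and 1.9e-06). The interaction of −0.25 (adjusted p = 0.018) was lost without WT normal replicate 2 (−0.17). The difference of −0.13 between paused KO and WT cells was lost when any of 13 of the 16 single libraries was left out, with values of −0.10 to −0.14. The 3 that kept it were WT paused replicate 1 and WT normal replicates 1 and 4. In normal culture the difference of 0.11 passed without WT normal replicate 4 (0.17).

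Its conjugation partner Atg12 went the opposite way in KO cells, rising by 0.29 ± 0.04 and falling by 0.11 ± 0.04 in WT cells (interaction 0.40, adjusted p = 9.0e-06). The WT call was lost with length-scaled TPM counts (−0.08, adjusted p = 0.089) and without replicate 1, 3 or 4 of every group. KO cells were at −0.43 against WT in normal culture and at −0.03 when paused. Atg16l1, which joins ATG12 and ATG5 at the membrane, fell by 0.29 in KO and 0.19 in WT cells, with KO above WT by 0.59 paused and 0.68 normal.

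Atg16l2, a paralogue of Atg16l1 (ENSMUSG00000047767.17, chromosome 7, 101263034 to 101302251), had the largest positive interaction of the 41 genes. It had 10.8, 11.4, 10.3 and 11.3 CPM in paused and 5.06, 4.84, 4.61 and 4.64 CPM in normal KO libraries, against 8.94, 8.63, 9.08 and 9.65 CPM in paused and 8.13, 8.86, 10.4 and 10.5 CPM in normal WT libraries. The normal KO libraries stood below the 12 others. The response was 1.19 ± 0.08 in KO cells and −0.06 ± 0.08 in WT cells, a difference of 1.25 ± 0.11 (adjusted p = 1.1e-07). The genotype difference was 0.27 when paused and −0.99 in normal culture, and that in paused culture was 0.10 and did not pass with length-scaled TPM counts.

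Of the enzymes that charge ATG8 proteins, the activating enzyme gene Atg7 was higher in KO cells by 0.34 paused and 0.25 normal. It rose by 0.15 in paused KO cells and had 0.06 in WT cells (adjusted p = 0.26). Atg3, which transfers ATG8 proteins to lipid, fell by 0.15 in WT cells and had 0.01 in KO cells. Its interaction of 0.16 (adjusted p = 0.053) passed without any 1 of 6 libraries, with 0.17 to 0.20 (KO paused 3, KO normal 3, WT paused 1 and WT normal 1, 2 and 3). Its difference of 0.13 between paused KO and WT cells was lost without WT paused replicate 3 (0.11) or 4 (0.10). Atg10, which transfers ATG12, was at 1.03 to 1.56 CPM in all 16 libraries. It was higher in paused WT cells by 0.29, lost without WT paused replicate 1 or 2 (0.26 each) or WT normal replicate 2 (0.25) or 3 (0.27). It was lower in paused KO than WT cells (−0.33), and its interaction of −0.36 passed without WT paused replicate 3 (−0.40).

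The ATG4 proteases prepare ATG8 proteins for conjugation and remove them again, and the 4 genes behaved differently. Atg4c (ENSMUSG00000028550.15, chromosome 4, 99193934 to 99259787) had 7.72, 8.63, 7.01 and 9.68 CPM in paused and 9.06, 9.41, 8.37 and 8.53 CPM in normal KO libraries. It had 3.15, 3.31, 2.96 and 3.16 CPM in paused and 3.15, 3.13, 3.23 and 3.04 CPM in normal WT libraries. It separated the genotypes and not the cultures, at 1.39 ± 0.09 in paused and 1.49 ± 0.09 in normal culture (adjusted p = 1.4e-10 and 4.2e-11), with pausing responses of −0.10 and 0.00 in KO and WT cells that did not pass.

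Atg4b, the protease with the highest level per length of the 4, averaged 64.6 and 56.9 CPM in paused and normal KO cells and 43.4 and 33.4 CPM in paused and normal WT cells. It rose by 0.18 in KO and 0.38 in WT cells. The interaction of −0.19 was lost without WT normal replicate 2 (−0.12) and was 0.00 with length-scaled TPM counts. Atg4a fell by 0.51 in KO and 0.60 in WT cells at 1.5 to 2.94 CPM. Its genotype difference of −0.24 in normal culture was lost without KO normal replicate 1 (−0.25), 3 or 4 (−0.21 each) or WT normal replicate 1 (−0.21) or 2 (−0.22). The retrocopy Atg4a-ps matches it over 2115 bases at 99.3% identity, so reads could be shared. Atg4d rose by 0.37 in KO cells and had 0.07 in WT cells, with an interaction of 0.30 (adjusted p = 0.0019). Its difference of −0.12 in normal culture was lost without KO normal replicate 3 (−0.10) or 4 (−0.09) or WT normal replicate 4 (−0.09). It overlaps the well-expressed gene Kri1 (63.8 to 81 CPM) over 792 bases, and with no statement on strand in the labels the Atg4d counts are uncertain. With length-scaled TPM counts its interaction of 0.21 did not pass. Retained-intron transcripts held 88.1%, 92.5%, 89.5% and 89.3% of its TPM in paused KO, normal KO, paused WT and normal WT cells.

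In the ATG8 family, the membrane-bound tags themselves, Map1lc3b and Gabarap rose in both genotypes and Map1lc3a fell in both. Map1lc3b, an LC3 gene (ENSMUSG00000031812.16, chromosome 8, 121590361 to 121598760), had 138, 140, 134 and 140 CPM in paused and 116, 116, 113 and 113 CPM in normal KO libraries. It had 120, 114, 107 and 107 CPM in paused and 90.1, 91.7, 90.7 and 95.1 CPM in normal WT libraries. Paused and normal libraries did not overlap within a genotype. Map1lc3b rose by 0.27 ± 0.04 in KO and 0.29 ± 0.04 in WT cells (adjusted p = 2.7e-06 and 1.4e-06) and was higher in KO cells by 0.30 paused and 0.32 normal. With length-scaled TPM counts the KO response was 0.05 and did not pass. Processed pseudogenes such as Gm6055 (0.12 to 0.97 CPM) share its sequence.

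Gabarap rose by 0.65 ± 0.04 in KO and 0.29 ± 0.04 in WT cells, an interaction of 0.37 ± 0.06 (adjusted p = 1.1e-04). Its 0.12 above WT in normal culture was lost without KO normal replicate 2 (0.11) or WT normal replicate 3 (0.09) or 4 (0.11). Map1lc3a fell by 0.83 ± 0.07 in KO and 0.35 ± 0.07 in WT cells, an interaction of −0.49 ± 0.09 (adjusted p = 4.0e-04). That interaction was −0.71 from replicates 1 and 2 alone and −0.26 from replicates 3 and 4 alone. Map1lc3a was 0.47 higher in KO than WT cells in normal culture and at −0.01 when paused.

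Gabarapl1 and Gabarapl2 set the genotypes apart in opposite directions. Gabarapl1 (ENSMUSG00000030161.8, chromosome 6, 129533160 to 129542346) had 23.3, 23.1, 22.0 and 22.2 CPM in paused and 31.3, 28.7, 25.6 and 26.4 CPM in normal KO libraries, against 11.7, 11.2, 10.6 and 10.8 CPM in paused and 11.3, 11.7, 11.5 and 12.6 CPM in normal WT libraries. KO cells exceeded WT cells by 1.04 ± 0.06 paused and 1.25 ± 0.06 normal (adjusted p = 4.2e-11 and 2.7e-12). It fell by 0.31 in paused KO cells and had −0.10 in WT cells. The interaction of −0.21 (adjusted p = 0.054) passed without any 1 of 4 libraries (KO normal 3 and 4 and WT normal 4, −0.24 each, and WT paused 3, −0.23). Gabarapl2 averaged 113, 117, 165 and 174 CPM in paused KO, normal KO, paused WT and normal WT cells, and KO cells were lower at −0.55 ± 0.06 paused and −0.57 ± 0.06 normal. Its response in WT cells took opposite signs within the replicate pairs, 0.11 from replicates 1 and 2 and −0.28 from replicates 3 and 4. Pseudogenes of Gabarapl2 had at most 0.345 CPM.

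The composition of the family per transcript length differed between the genotypes in both cultures. Gabarapl2 made up 33.4% ± 1.41 and 36.5% ± 0.927 of the summed TPM of the 5 genes in paused and normal KO cells, and 49.2% ± 2.27 and 53.1% ± 0.626 in paused and normal WT cells (SD, n = 4). Gabarap made up 24.8% ± 1.15 and 15.2% ± 0.379 in KO cells and 17.2% ± 0.744 and 13.3% ± 0.978 in WT cells, in the same order. The share of Map1lc3b was 28.8%, 27.7%, 23.4% and 21.0% in paused KO, normal KO, paused WT and normal WT cells. The order of these shares depends on which transcripts are counted, since retained-intron transcripts held 37.8% to 47.5% of Gabarapl2 and 2.86% to 4.44% of Map1lc3b TPM. With protein-coding transcripts alone, an alternative chosen after seeing the data, Map1lc3b held 32.7% ± 0.470 and 33.2% ± 0.433 in paused and normal KO cells, and Gabarapl2 24.5% ± 1.26 and 25.8% ± 0.283. In WT cells Map1lc3b then held 29.1% ± 0.596 and 27.9% ± 0.281 and Gabarapl2 36.8% ± 1.58 and 38.9% ± 0.924. Map1lc3b therefore held the highest share in KO and Gabarapl2 in WT cells when coding transcripts alone were counted. The summed TPM was 460 ± 20 and 400 ± 12.1 in paused and normal KO cells and 459 ± 40.9 and 391 ± 19.9 in paused and normal WT cells. Within each culture these sums, retained-intron transcripts included, differed between the genotypes by less than 1 SD of the larger spread. This need not hold for coding transcripts, whose sum is not given here. In paused KO and WT cells these held 127 and 103 TPM of Map1lc3b, 113 and 77.2 of Gabarap and 22.0 and 10.6 of Gabarapl1. Gabarapl2 had 95.7 and 130 and Map1lc3a 32.2 and 32.1 TPM. In normal KO and WT cells, in the same gene order, they were 108 and 78.4, 60.2 and 51.4, and 23.6 and 9.74 TPM. Gabarapl2 then had 83.4 and 109 and Map1lc3a 48.9 and 32.0 TPM.

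**Figure D3:**
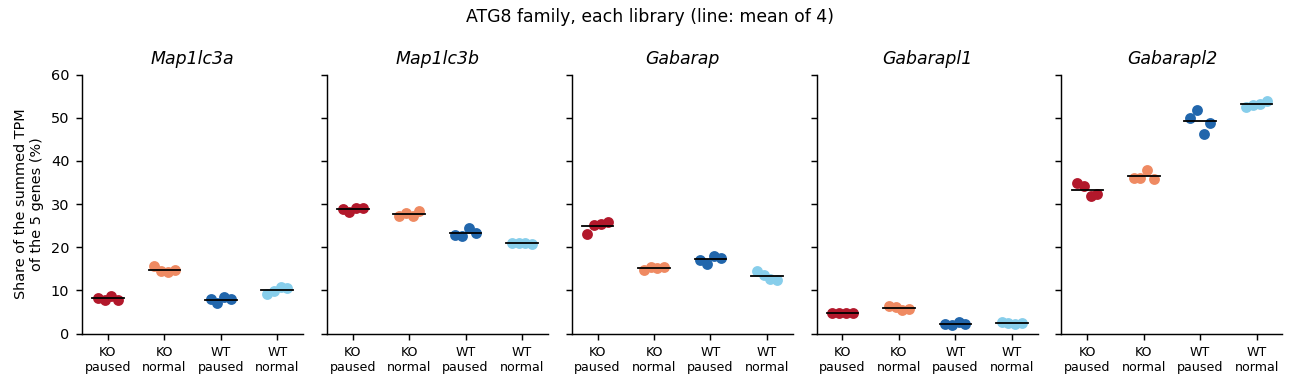
Share of each ATG8 gene in the summed TPM of the 5 genes, retained-intron transcripts included (y axis, %), in each library (points) and the mean of 4 (line). Gabarapl2 lies at 32.0% to 37.8% in the KO libraries and at 46.3% to 54.0% in the WT libraries, and Gabarap is highest in the paused KO libraries at 23.2% to 25.8%.

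Of the cargo receptors, which tie what is to be degraded to ATG8 proteins, 5 of 7 responded differently in the genotypes, where 41.9% of all genes did. The calls of Sqstm1 (0.20, adjusted p = 0.048) and Bnip3 (−0.93, adjusted p = 0.042) among them were lost without any 1 of 8 and any 1 of 12 libraries. In paused KO cells 3 of 7 were higher and 3 lower, and in paused WT cells 4 were higher and none lower at the same threshold. Optn encodes optineurin, a receptor for ubiquitinated cargo and mitochondria (ENSMUSG00000026672.11, chromosome 2, 5020642 to 5064051). It had 8.78, 8.15, 8.89 and 8.31 CPM in paused and 9.18, 8.75, 8.53 and 8.46 CPM in normal KO libraries. It had 13.1, 11.7, 13.5 and 13.1 CPM in paused and 4.26, 4.45, 4.95 and 5.33 CPM in normal WT libraries. The KO libraries of both cultures lay between the normal and the paused WT libraries without overlap. The response was −0.03 ± 0.07 in KO and 1.43 ± 0.07 in WT cells (adjusted p = 0.70 and 8.9e-12), and the interaction of −1.47 ± 0.10 (adjusted p = 7.5e-09) was the largest of the 41 genes. It was −1.60 from replicates 1 and 2 alone and −1.34 from replicates 3 and 4 alone.

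Sqstm1 encodes p62, which is itself consumed by autophagy (ENSMUSG00000015837.15, chromosome 11, 50199366 to 50210827). It had 150, 170, 158 and 170 CPM in paused and 149, 145, 133 and 134 CPM in normal KO libraries, against 111, 104, 103 and 107 CPM in paused and 99.0, 98.0, 110 and 115 CPM in normal WT libraries. Every KO library lay above every WT library. KO cells exceeded WT cells by 0.61 ± 0.06 paused and 0.41 ± 0.06 normal (adjusted p = 1.8e-08 and 2.8e-06). It rose by 0.21 in paused KO cells and had 0.01 in WT cells, where replicates 1 and 2 alone gave 0.13 and replicates 3 and 4 alone −0.11. The interaction of 0.20 (adjusted p = 0.048) was lost when any of 8 single libraries was left out, with 0.15 to 0.20 (KO paused 2 and 4, KO normal 3 and 4, WT paused 2, 3 and 4 and WT normal 4). Sqstm1 overlaps Mrnip (5.34 to 16.6 CPM).

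Calcoco1, a receptor for endoplasmic reticulum, was raised by pausing in both genotypes (ENSMUSG00000023055.10, chromosome 15, 102706777 to 102722178). It had 143, 144, 153 and 152 CPM in paused and 73.8, 75.0, 75.1 and 72.7 CPM in normal KO libraries. It had 114, 112, 112 and 114 CPM in paused and 49.7, 52.4, 54.9 and 56.2 CPM in normal WT libraries. It rose by 1.00 ± 0.04 in KO and 1.08 ± 0.04 in WT cells (adjusted p = 1.3e-13 and 1.1e-13), with an interaction of −0.09 ± 0.05 (adjusted p = 0.19). KO cells were higher by 0.39 paused and 0.48 normal. Nbr1, a partner of p62, rose by 0.21 in KO and 0.22 in WT cells with no call between genotypes. Tax1bp1 fell by 0.17 in KO cells and rose by 0.08 in WT cells. Its interaction was −0.25 (adjusted p = 9.2e-05), and the WT call was lost without WT paused replicate 4 (0.06) or WT normal replicate 2 (0.05) or 3 (0.06).

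The mitophagy receptors Bnip3 and Bnip3l, known as targets of hypoxia signalling, fell in paused KO cells. Bnip3 (ENSMUSG00000078566.8, chromosome 7, 138890836 to 138909519) had 11.5, 9.51, 10.6 and 10.02 CPM in paused and 35.0, 29.8, 14.8 and 26.3 CPM in normal KO libraries. It had 27.9, 26.9, 34.7 and 32.9 CPM in paused and 53.2, 50.1, 30.1 and 29.9 CPM in normal WT libraries. The paused KO libraries lay below all others, and the normal libraries of each genotype were spread widely. Bnip3 fell by 1.35 ± 0.25 in KO cells (adjusted p = 2.5e-04) and had −0.42 ± 0.24 in WT cells (adjusted p = 0.15), where replicates 1 and 2 alone gave −0.91 and replicates 3 and 4 alone 0.17. KO cells were lower by a log2 fold change of −1.56 ± 0.25 when paused (adjusted p = 7.4e-05). In normal culture −0.62 (adjusted p = 0.032) was lost without KO normal replicate 3 (−0.43) or 4 (−0.62) or WT normal replicate 1 (−0.47) or 2 (−0.52). The interaction of −0.93 (adjusted p = 0.042) was lost when any of 12 of the 16 libraries was left out, with −0.77 to −0.97. The 4 that kept it were KO normal replicate 3, WT paused replicate 2 and WT normal replicates 1 and 2.

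Bnip3l fell by 0.41 ± 0.04 in KO cells and had 0.04 ± 0.04 in WT cells, an interaction of −0.45 ± 0.06 (adjusted p = 8.1e-06). With length-scaled TPM counts the WT response was 0.17 and passed (adjusted p = 0.0044). KO cells were 0.52 above WT in normal culture and 0.07 when paused, where the call was gained without WT normal replicate 2 or 3 (0.10 each).

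Whether pausing acted differently in the genotypes was tested for each gene as the response in KO minus that in WT cells. The test called 17 of the 41 genes, 7 positive and 10 negative, where 41.9% of all genes were called, 17.4% positive and 24.5% negative. The split depends on the scaling, with 13 positive and 7 negative when only protein-coding genes enter the fit and 4 and 10 with length-scaled TPM counts. None of the 5 initiation genes was called in either direction, although Ulk1 passed under the alternatives given above and Atg101 (−0.14, adjusted p = 0.076) passed without KO paused replicate 1 (−0.16). Rb1cc1 passed with length-scaled TPM counts (−0.22, adjusted p = 0.010). From replicates 3 and 4 alone Atg13 (0.28, adjusted p = 0.0011) and Ulk1 (0.14, adjusted p = 0.026) passed. Pik3c3 (0.07) and Wdr45b (0.06) passed without WT normal replicate 3 (0.14 and 0.13). Among the receptors 5 of 7 were called, 2 of them with the limits given above. The largest differences were those of Optn, Atg16l2 (1.25), Bnip3 and Wdr45 (0.83), the remaining 13 lying within 0.51 of 0.

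**Figure D4:**
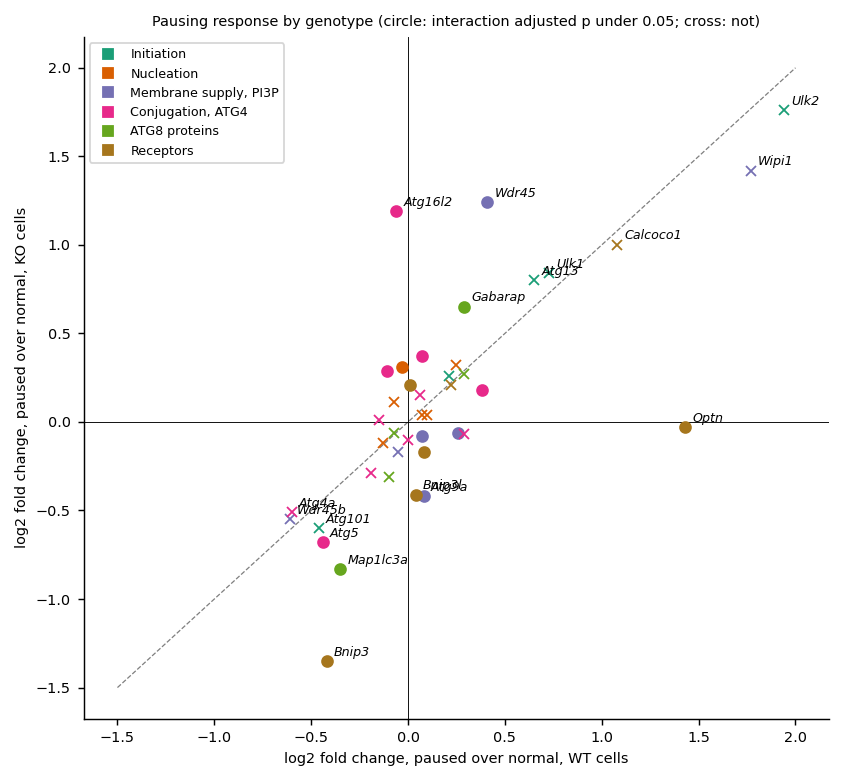
Log2 fold change on pausing in KO cells (y axis) against that in WT cells (x axis) for the 41 genes, coloured by step, with circles for genes whose responses differ between genotypes at adjusted p under 0.05 and crosses for the others. Ulk2, Wipi1, Calcoco1, Ulk1 and Atg13 lie near the dashed line of equal response, Optn lies far to its right and Atg16l2 and Wdr45 above it.

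Genotype differences were set beside those of the surrounding genes, because whole regions differed between the lines. The 965 tested coding genes of chromosome 1 had a median log2 fold change, KO over WT, of 0.50 in paused and 0.50 in normal culture, and the 632 of chromosome 14 had 0.23 and 0.24. The X chromosome had −0.14 and −0.22, and each other autosome lay between −0.13 and 0.10. All 4 of the autophagy genes on chromosome 1 were higher in KO cells in both cultures. Within 5 Mb on each side, the neighbours of Atg9a had medians of 0.50 paused and 0.73 normal, those of Rb1cc1 0.46 and 0.31, those of Atg16l1 0.42 and 0.42, and those of Atg4b 0.47 and 0.44. The neighbours of Atg14 had 0.66 and 0.68, about the size of its own difference. The neighbours of Wdr45 had −0.17 and −0.39 and those of Atg13 −0.13 and −0.30. The part of these surroundings in the genes' own differences was not tested. For Wipi1 the neighbours had 0.01 and 0.10, for Gabarapl1 0.06 and 0.06, for Atg4c −0.11 and −0.18 and for Gabarapl2 0.02 and 0.08, all small beside the genes' own differences.

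**Figure D5:**
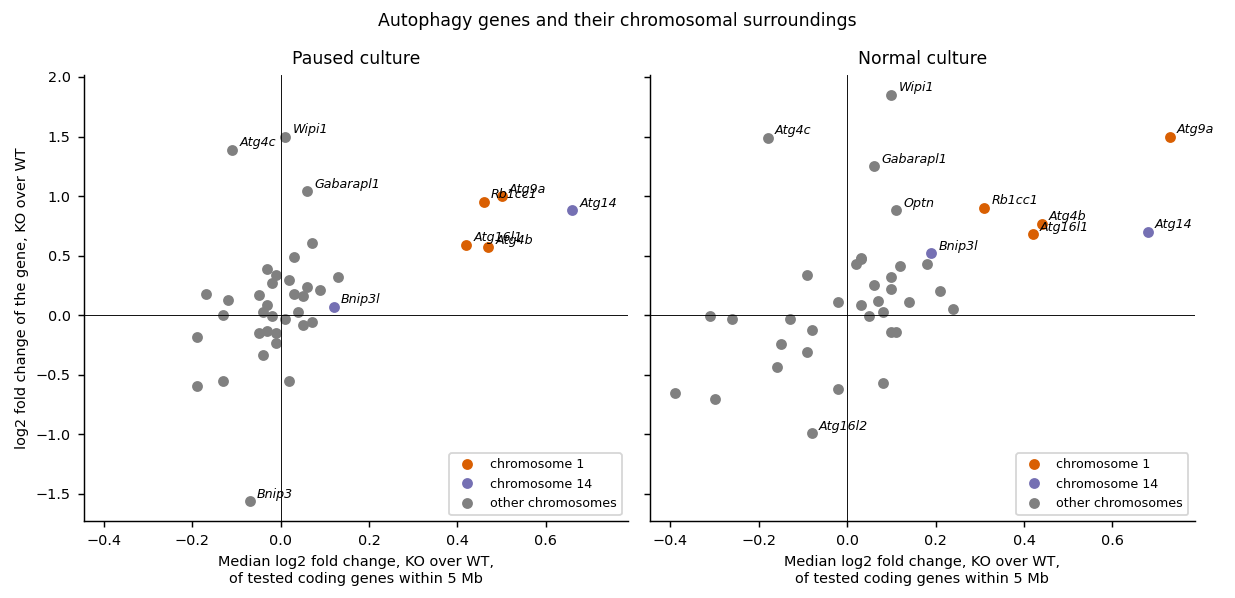
Log2 fold change, KO over WT, of each of the 41 genes (y axis) against the median of tested coding genes within 5 Mb on each side (x axis), in paused (left) and normal (right) culture. Genes of chromosome 1 (orange) and Atg14 on chromosome 14 lie to the right, with neighbour medians of 0.31 to 0.73, while Wipi1, Atg4c and Gabarapl1 have neighbour medians between −0.18 and 0.10.

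Transcript forms of the genes also changed with culture. For 23 of the 41 genes at least 2 transcripts held 10% or more of the gene's estimated counts. In paused against normal KO cells the share of the leading transcript did not overlap between groups for 14 of these genes (60.9%, against 31.3% of 8337 genes with such forms). In WT cells this held for 11 (47.8%, against 22.6%). Between KO and WT cells it held for 9 in paused culture (39.1%, against 26.5%) and for 5 in normal culture (21.7%, against 21.3%). Atg14-201 held 80.8% ± 2.73 of Atg14 counts in paused and 54.2% ± 1.45 in normal KO cells, and 73.9% ± 4.69 and 67.2% ± 5.97 in paused and normal WT cells (SD, n = 4). In KO cells its level per length was 29.4 and 15.9 TPM in paused and normal culture, while the other coding form Atg14-202 had 6.36 and 12.3 TPM. The total of Atg14 did not pass the test in KO cells, while its 2 coding forms had opposite differences. Nbr1-206 held 41.6% ± 2.44 and 52.4% ± 2.13 in paused and normal KO cells, against 57.7% ± 2.43 and 51.1% ± 4.73 in paused and normal WT cells. Wipi2-201 gained in both genotypes, with 73.8% and 67.6% in paused and normal KO cells and 73.1% and 64.1% in paused and normal WT cells. These shares come from estimated counts that kallisto divides among overlapping transcripts, which has an error of its own that the deposited tables do not give.

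Transcripts annotated with a retained intron were measured for 29 of the genes. Their share of the gene's TPM was higher without overlap in paused KO cells for 13 genes and lower for 3 (31.4% and 4.53% of 8568 genes), and in paused WT cells higher for 7 and lower for 3 (13.7% and 6.97%). Between KO and WT cells it was higher for 5 and lower for 2 in paused culture (14.5% and 6.89%), and higher for 2 and lower for 4 in normal culture (3.09% and 11.8%). For Atg4b the share was 27.1% ± 2.66 and 13.1% ± 1.5 in paused and normal KO cells and 22.0% ± 1.33 and 12.3% ± 2.38 in paused and normal WT cells. For Wipi2 it was 13.7% ± 1.28 and 6.82% ± 0.166 in KO cells and 10.6% ± 0.444 and 7.37% ± 1.57 in WT cells, in the same order. In Gabarapl2 it was lower when paused, with 37.8% and 42.8% in KO and 42.6% and 47.5% in WT cells. Among all genes too, a higher share in paused cells was the more frequent direction.

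A list of 51 further autophagy genes, covering fusion, early regulators, other receptors and upstream factors, moved in both directions as well. In paused KO cells 21 were higher and 17 lower, which is 74.5% called against 67.2% of all genes. In paused WT cells 25 were higher and 20 lower (88.2%, against 60.7%). KO cells had 21 higher and 14 lower than WT cells in paused culture (68.6%, against 65.4%) and 23 higher and 14 lower in normal culture (72.5%, against 68.2%). The interaction was called positive for 14 and negative for 14 (54.9%, against 41.9%). Pink1, the kinase that marks damaged mitochondria, averaged 28.7 ± 1.31 and 10.6 ± 0.491 CPM in paused and normal KO cells and 30.8 ± 0.511 and 12.6 ± 1.11 CPM in paused and normal WT cells, a rise of 1.44 and 1.29 in KO and WT cells. Retreg1, a receptor for endoplasmic reticulum like Calcoco1, rose by 1.25 in KO and 0.98 in WT cells and was higher in KO cells by 1.81 paused and 1.54 normal.

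Calcoco2, a paralogue of Calcoco1, fell by 0.92 in KO and 2.14 in WT cells, with 8.0 ± 0.831 and 15.1 ± 0.746 CPM in paused and normal KO cells and 24.9 ± 3.88 and 110 ± 36.0 CPM in paused and normal WT cells. Of the fusion genes, Ykt6 fell by 1.03 in KO and 0.76 in WT cells, and Rab7 was lower in KO cells at −1.07 paused and −1.12 normal. Vamp8, a SNARE of fusion with the lysosome, fell by 0.50 in KO and 0.75 in WT cells. Fundc1, a mitochondrial receptor, fell by 0.79 in KO and 0.67 in WT cells, and the endoplasmic reticulum receptors Ccpg1 and Tex264 rose by 0.62 and 0.68 in KO and by 0.61 and 0.23 in WT cells. Ei24 rose by 0.64 in WT cells and had −0.05 in KO cells, with an interaction of −0.69. Nrbf2, a subunit that joins the Atg14 form of the lipid kinase complex, was lower in KO cells at −1.05 paused and −0.80 normal. The ATPase gene Vcp fell by 0.70 in KO and 0.24 in WT cells, while Wdfy3, an adaptor for aggregates, rose by 0.66 in KO and 0.36 in WT cells. Further interactions were −0.61 for Bcl2, which binds Beclin 1, and −0.46 for the tethering gene Vps18. The PI3P-binding gene Zfyve1 was at −0.51 in KO against WT cells in normal culture. Among the upstream factors, Tfeb averaged 49.3 ± 2.15 and 50.5 ± 5.43 CPM in paused and normal KO cells and 24.9 ± 2.47 and 38.4 ± 1.39 CPM in paused and normal WT cells. It fell by 0.62 in WT cells and had −0.03 in KO cells (interaction 0.59, adjusted p = 1.7e-04). Zkscan3, described as a repressor of autophagy genes, rose by 1.19 in KO and 0.65 in WT cells. Foxo3 was higher in KO cells by 0.72 paused and 0.75 normal, and Mitf, a relative of Tfeb, was lower at −0.90 paused and −0.43 normal.

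The sequences that bear on the knockout are the seeds of the microRNAs that ESCs make in quantity from the miR-290 and miR-302 clusters, and their matches in the mRNAs. The mature forms below, from RefSeq (GRCm38.p6, plus strand of chromosomes 7 and 3), are shown because they share the seed of bases 2 to 8, given in capitals.
mmu-miR-291a-3p: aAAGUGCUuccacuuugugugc
mmu-miR-294-3p: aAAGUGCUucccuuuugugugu
mmu-miR-302b-3p: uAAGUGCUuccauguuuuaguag
The 7-letter match to this seed, AGCACTT, occurs in the longest annotated 3′ UTR (GENCODE M21) of 9 of the 41 genes (22%), against 16.6% of 16681 tested coding genes. In paused culture all 9 were called higher in KO than in WT cells, the call of Wdr45 being lost without any 1 of 4 libraries, where 38.6% of all genes with a match and 32.7% of genes without were. With length-scaled TPM counts Atg16l2 (0.10, adjusted p = 0.28) and Atg4d (0.13, adjusted p = 0.073) were not called, and Atg16l2 was not called without replicate 2 of every group. In normal culture 6 of the 9 were higher and 3 lower, where 41.4% of genes with a match were higher. Of the 32 autophagy genes without a match, 13 were higher in paused and 16 in normal culture. The median difference of the 9 was 0.34 paused and 0.25 normal, against 0.03 and 0.12 for the 32 others. Over all tested coding genes the medians were 0.04 paused and 0.06 normal with a match, and −0.03 and 0.00 without. Rb1cc1, Atg9a and Atg4b are among the 9 and lie on chromosome 1, where the surroundings were raised too. The windows below show the match in capitals with its neighbouring bases, 5′ to 3′ on the mRNA strand, for the 6 genes higher in both cultures.
Ulk1 (chromosome 5): gtaagtcaccggAGCACTTtatgcatac
Rb1cc1 (chromosome 1): gcagtcttcaaaAGCACTTttcacacag
Atg9a (chromosome 1): acttttaggacgAGCACTTgggagtgtg
Wipi1 (chromosome 11): tcggttcccagcAGCACTTacaattgag
Atg7 (chromosome 6): cctcggtttaagAGCACTTtattattgt
Atg4b (chromosome 1): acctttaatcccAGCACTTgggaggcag
The other 3 genes with a match, Wdr45, Atg16l2 and Atg4d, were higher in paused and lower in normal KO cells. For Atg9a, Wipi1, Atg16l2 and Atg4d the transcript with the longest UTR was not the leading transcript by counts. Whether the leading one holds the match was not examined. A match is a description of letters and shows no binding.

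Promoter letters were searched from 250 bases before to 50 after the start, in 37 RefSeq promoters (GRCm38.p6) of 33 of the genes, on both strands. CACGTG, the E-box core, was in 5 (13.5%, against 7.15% of 32851 promoters and 9.1% of the 16410 promoters of tested genes), and TCACGTG, the longer form that TFEB and TFE3 prefer and that contains it, in 3 (8.11%, against 3.77% and 5.27%). TGACNNNGC, of the antioxidant response, was in 4 (10.8%, against 12.4% and 13.9%), and GTAAACA, of FoxO factors, in 0 (against 3.65% and 2.74%). The TCACGTG genes are shown, with the E-box letters on the gene's strand in capitals, since TFEB and TFE3 are the factors that mTOR holds back. Where the match lies on the opposite strand, its complement is in capitals.
Atg7 (chr6:114670952-114670981, plus strand): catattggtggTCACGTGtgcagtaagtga
Atg3 (chr16:45158746-45158775, plus strand): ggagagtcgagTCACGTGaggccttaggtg
Atg14 (chr14:47568417-47568446, minus strand): aaacaaaatccCACGTGActggccctgagc
Of these 3 genes, none rose in paused WT cells, and in paused KO cells Atg7 rose by 0.15 while Atg3 (0.01) and Atg14 (0.11) did not pass the test. The sites of Atg7 and Atg14 lie inside the annotated genes (114643097 to 114860614 and 47540893 to 47570649), at starts other than the outermost. The responses are those of the whole genes. The other E-box genes, Atg5 and Bnip3, fell in paused KO cells. Wipi1, Ulk1 and Calcoco1, which rose in both genotypes, are not among the genes with CACGTG in the windows searched. Promoters of 33 of the genes were searched, and whether Wipi1, Ulk1 and Calcoco1 are among them is not given here. Sites outside the windows were not searched. The part of TFEB and TFE3 in the pausing responses was not tested.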

How the data were processed

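Poly(A) RNA of 16 libraries, from 800000 cells and 1 µg of RNA each, was sequenced. Per the submitters' processing notes the reads were quantified with kallisto and GRCm38, and the kallisto version, index and settings are not given in the sources used here. The deposited tables give, per transcript, estimated counts that are not normalized, TPM (per length and library total) and effective lengths in bases, per the file headers. Of 118489 transcript identifiers, 116728 matched GENCODE M21, and the 1761 others held 0.656% to 0.712% of the counts and do not enter the results. Gene sums of the estimated counts were rounded and tested with edgeR 4.0.16 (R 4.3.3, limma 3.58.1): filterByExpr with a minimum count of 10, TMM scaling, 1 mean per group over all 4 groups, a robust two-sided quasi-likelihood test and Benjamini-Hochberg adjustment over all genes tested, with a threshold of 0.05. The steps were checked on simulated counts. CPM is on TMM-scaled library sizes, and levels of different genes are compared only in TPM. DESeq2 1.42.0, another scaling, no filter, length-scaled TPM counts, protein-coding genes alone, the compared groups alone, a replicate block, replicate pairs and left-out replicates and libraries were alternatives. The genes, lists, tests and alternatives were chosen with earlier results of these data known. Library values are given for the 12 genes with the largest called log2 fold changes between groups and for 1 or 2 representatives of each step, and of the further autophagy genes up to 5 each way per comparison are named, 1 of them being not reported here. Copies were sought at 95% identity over 200 bases. The labels' only batch information is the replicate number. Kallisto's division of reads among transcripts and near-identical genes adds an error that the tables do not hold. Depth was 88377380 to 116646028 estimated counts per library, and the lowest count of any of the 41 genes in a library was 99, for Atg10 and Ulk2.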

Additional observations from a re-analysis of the deposited data

Results flagged for a closer look

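In 8 of 164 groups of 4 libraries, 1 library lay far from the others by Dixon's test, and chance flags about 1 in 20 groups. Higher than the rest were Atg101 in KO normal replicate 1, at 63.05 CPM against 57.52 to 58.28, and Becn1 in KO paused replicate 4, at 67.00 CPM against 62.31 to 63.00. So were Wdr45b in WT paused replicate 1, at 60.02 CPM against 58.06 to 58.30, and Atg10 in KO normal replicate 2, at 1.320 CPM against 1.177 to 1.195. Lower than the rest were Becn1 in WT normal replicate 1, at 52.67 CPM against 54.07 to 54.33, and Atg7 in KO paused replicate 1, at 19.07 CPM against 20.99 to 21.27. Atg4b in WT normal replicate 2 had 31.01 CPM against 33.95 to 34.38, and Gabarapl2 in KO normal replicate 4 had 114.5 CPM against 118.0 to 118.4.

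The pausing response in KO minus that in WT cells passed edgeR's quasi-likelihood test for 17 genes. Positive log2 differences were 1.25 for Atg16l2, 0.83 for Wdr45, 0.40 for Atg12, 0.37 for Gabarap, 0.34 for Uvrag, 0.30 for Atg4d and 0.20 for Sqstm1. Negative ones were −1.47 for Optn, −0.93 for Bnip3, −0.51 for Atg9a, −0.49 for Map1lc3a, −0.45 for Bnip3l, −0.32 for Atg2a, −0.25 for Atg5, −0.25 for Tax1bp1, −0.19 for Atg4b and −0.16 for Wipi2. Leaving out 1 library ended the call for Atg2a, Atg5 and Atg4b (WT normal replicate 2, with −0.23, −0.17 and −0.12), for Sqstm1 (any of 8 libraries) and for Bnip3 (any of 12).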

How the results depend on the processing

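Over 5904 comparisons of a value with an alternative, 5589 stayed on the same side of the threshold, 228 lost the call and 80 gained it. Changes of sign where neither value passed are among the 5589. An example is Bnip3 on pausing in WT cells (−0.42, and 0.17 from replicates 3 and 4 alone). In the other 7 the direction turned, and the main value, the alternative or both passed. All 7 are single genes. With length-scaled TPM counts the KO pausing response of Rb1cc1 was −0.15 and its interaction −0.22, the WT pausing response of Wipi2 was −0.07 and the interaction of Atg4b 0.00. From replicates 1 and 2 alone the WT pausing response of Gabarapl2 was 0.11 and the interaction of Sqstm1 −0.00, and from replicates 3 and 4 alone the WT pausing response of Sqstm1 was −0.11. The number of positive interactions among the 41 genes (7) was 4 with length-scaled TPM counts, 13 with protein-coding genes alone and 12 from replicates 3 and 4 alone, and the cause was not tested. Leaving out 1 replicate or library gave 6 to 11 positive interactions (11 without WT normal replicate 3) and 6 to 12 negative ones (6 without replicate 2), and 9 to 16 positive ones for the further genes (9 without replicate 2). Leaving out also gave 13 to 18 higher and 7 to 9 lower genes on pausing in WT and 18 to 19 and 12 to 14 in KO cells. Between KO and WT cells it gave 20 to 23 higher and 7 to 10 lower genes in paused and 19 to 23 and 8 to 11 in normal culture. Same-numbered replicates correlated at −0.226 to 0.417 over 9534 genes, and not every sample correlated best with its own number, so the numbers do not pair the samples. The replicate block gave 6 positive and 12 negative interactions and left the other 8 counts of the 41 genes as they were. It ended the interaction call of Sqstm1 (0.20, adjusted p = 0.064) and made those of Wipi1 (−0.34, adjusted p = 0.038) and Gabarapl1 (−0.21, adjusted p = 0.043) pass. DESeq2 and RLE scaling gave 9 and 10. No scaling moved the median of all genes by more than 0.07. The lowest counts in a library were 99 for Atg10 and for Ulk2 and 144 for Atg4a.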
